A study of Mus musculus with 80 samples.

Results

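The 8 liver arrays of wild-type (WT) mice were compared with the 32 arrays of brain, heart, kidney and lung from WT mice, within a series of 80 arrays. The arrays were chosen by their titles, which name genotype, sex, animal and tissue, and each of the 10 WT groups of tissue and sex held 4 arrays. All animals were on a C57BL/6 background, had free access to chow, and received no treatment. Ages are not given in the labels. The series was made to characterise mice that lack serum carboxylesterase (Ces1c), and the WT arrays are its controls. The 40 WT arrays came from 11 animals, of which 5 gave all 5 tissues, 3 gave 4 tissues and 3 gave lung only, so most tissues of a comparison were taken from the same mice. Frozen tissue was pulverised, its total RNA was labelled as cRNA and read on HT MG-430 PM arrays (Affymetrix), and every value is a log2 expression level of 1 probe set. A difference of 1 log2 unit is a 2-fold difference. Values lay between 2.23 and 14.06, with array medians of 3.93 to 4.21, so a value near 3 to 4 is close to the lower end of what the array reads and a fold difference against it is understated.

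The liver is built mainly of hepatocytes, which secrete most plasma proteins, coagulation factors and apolipoproteins, detoxify ammonia through the urea cycle, make bile acids from cholesterol, and oxidise drugs and steroids with cytochrome P450 enzymes. It exports glucose and ketone bodies for other organs and lacks enzymes by which other organs use ketone bodies. In mice, the male and female patterns of growth hormone release give the hepatocytes of each sex a different set of P450 enzymes and sulfotransferases. Kupffer cells (macrophages), sinusoidal endothelial cells, stellate cells and bile duct cells make up most of the rest.

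The tissue labels were checked against marker lists. In the 8 livers the mean of 16 brain markers was 3.95 to 4.14, of 17 heart muscle markers 4.03 to 4.45, of 16 kidney markers 4.01 to 4.24 and of 14 lung markers 4.25 to 4.39, all near the array median. The same lists read 9.83 to 9.97 in brain, 12.3 to 12.6 in heart, 10.7 to 10.9 in kidney and 11.3 to 11.5 in lung. Several arrays nevertheless had raised markers of a second tissue. Hepatocyte transcripts were high in the heart of male 903, where 31 plasma protein genes averaged 8.16, against 4.45 to 5.28 in the other 7 hearts. Pancreatic acinar genes averaged 7.77 in the liver of female 876, 8.65 in that of female 1264 and 9.12 in that of male 1262, against 4.21 to 4.43 in the other 5 livers. Skeletal muscle genes averaged 5.49 in the liver of female 1264 and 6.12 in that of female 1265, against 3.63 to 3.81 in the other 6 livers. The same genes averaged 7.50 in the brain of female 1264, and 7.96, 7.89 and 5.38 in the lungs of male 903, female 1265 and male 1960, against 3.51 to 3.68 in the other 5 lungs. Heart muscle markers were raised in all 8 lungs, at 5.52 to 8.61. Some results that rest on these arrays are given with and without them. Other leads over the heart are given with the heart of male 903 included.

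**Figure D1:**
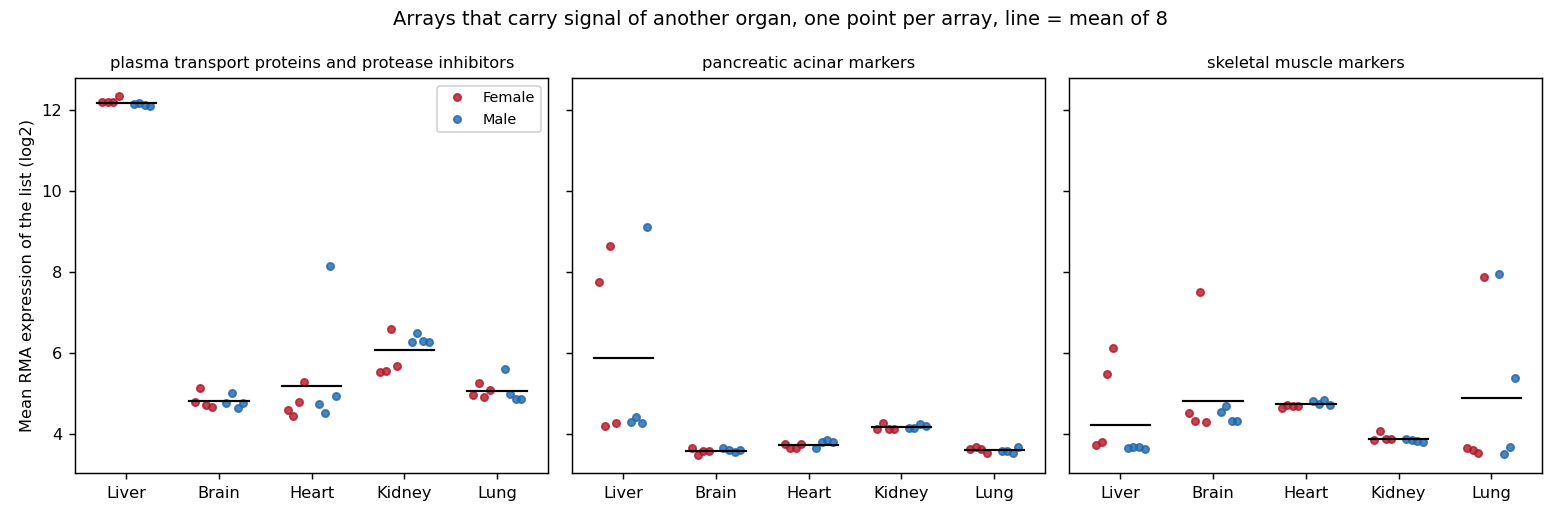
Mean log2 expression of 3 gene lists (31 plasma protein genes, 12 pancreatic acinar genes and 11 skeletal muscle genes) in each of the 40 WT arrays, by tissue and sex, 1 point per array. The 8 livers lie at 12.1 to 12.3 for plasma proteins, the heart of male 903 stands at 8.16, and 3 livers stand at 7.77 to 9.12 for the pancreatic genes.

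The 3 genes taken as markers of liver were high in every liver. Albumin (Alb), the main plasma protein, read 13.66 in the lowest liver, 13.84 at the median and 13.94 in the highest, against 3.30 to 7.36 in brain, 4.45 to 12.32 in heart, 6.05 to 10.28 in kidney and 3.80 to 8.34 in lung. All 8 livers lay above all 32 other arrays. The difference to the highest other tissue, the heart, was 6.36 ± 0.80 (SE; limma adjusted p = 2.7e-08), 6.61 without the heart of male 903 and 5.76 without that of male 901. Ces1c, the secreted esterase whose loss the study examined, read 12.11, 12.48 and 12.63 in the lowest, median and highest liver and 8.24 ± 0.42 above the heart (adjusted p = 6.1e-19), or 8.88 without male 903. Female livers read 12.53 to 12.63 and male livers 12.11 to 12.42 for Ces1c, groups that did not overlap, but the male minus female difference of -0.31 did not pass the test (adjusted p = 0.85). Cps1, the mitochondrial enzyme that fixes ammonia for the urea cycle, read 12.50, 12.68 and 12.86. It stood 7.89 ± 0.41 above the heart (limma adjusted p = 1.2e-18), or 8.47 without male 903.

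**Figure D2:**
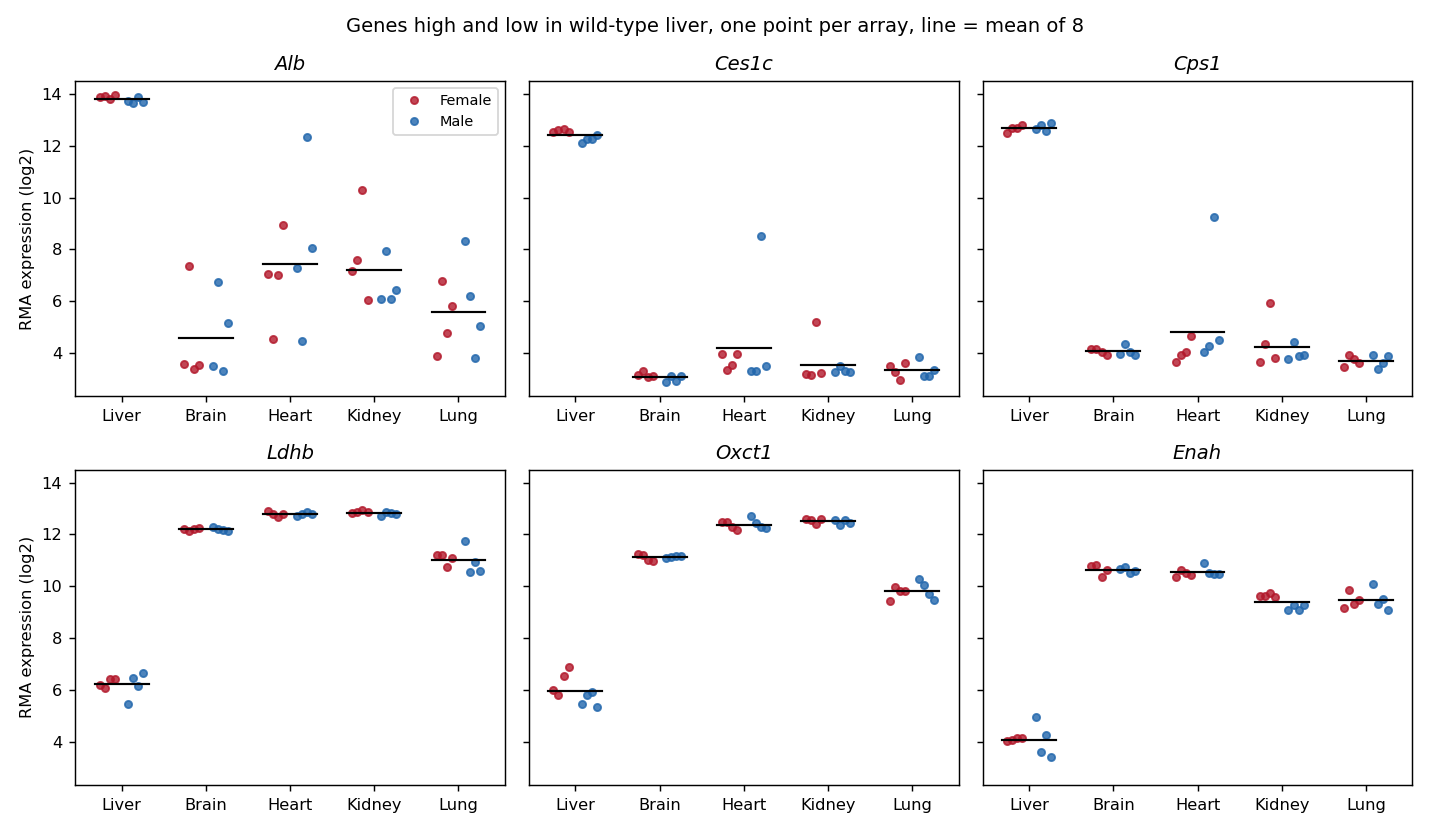
Log2 expression of Alb, Ces1c, Cps1, Ldhb, Oxct1 and Enah in each WT array by tissue, with females and males marked apart, 1 point per array. The first 3 genes are highest in all 8 livers and the last 3 are lowest in all 8.

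Of 17097 genes, 716 (4.19%) were higher in liver than in each of the 4 other tissues, by at least 1 log2 unit over the highest tissue mean and with the largest of the 4 one-sided limma p-values under 0.05 after Benjamini-Hochberg adjustment over all genes. By the mirrored rule 583 genes (3.41%) were lower in liver than in each other tissue. Averaging the probe sets of each gene gave 693 higher and 405 lower genes, of which 667 and 395 were among the 716 and 583. Quantile normalisation once more gave 764 and 451, with 684 and 438 shared. Scaling the arrays to the median of the gene table, which shifts the median difference over all genes to brain from 0.133 to 0.639 and to lung from 0.087 to 0.712, gave 1161 higher and 318 lower, so the balance of the 2 directions depends on that scaling. In this bulk tissue, fewer cells of a type and less RNA per cell cannot be told apart. The rule held within females and within males alike for 573 of the genes that were higher (3.35% of all genes) and 478 of those that were lower (2.8%). Another 95 higher genes passed in females only, 43 in males only and 5 in neither sex alone. For the lower genes these numbers were 57, 46 and 2. Of 12 pancreatic acinar genes 10 were among the 716, and without the 3 livers with pancreatic signal 0 were called. The total without those livers was 708 genes, of which 679 were among the 716.

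The higher genes stood a median of 2.18 log2 units above the next tissue, with quartiles of 1.39 and 4.4, and 111 of them stood at least 6 above it. The lower genes lay a median of -1.56 under the next tissue, 12 of them by at least 4 and none by 6. All 8 livers lay beyond all 32 other arrays for 641 of the higher and 520 of the lower genes. Both sets were picked on these same values, so this mostly restates the rule, and the share over all genes is not given. For 289 of the higher genes every other tissue mean was under 5.42, the median of all values, and for 376 of the lower genes the liver mean was. Of 221 higher genes with several probe sets, 190 had all of them on the same side, while of 356 lower genes 201 did. At the threshold, Sqor lay just inside at 1.0012 and E2f8 just outside at 0.9975, and Ift43 just inside at -1.0018 and Npy1r just outside at -0.9997. Leaving out single arrays moved Sqor to as little as 0.95 and Ift43 to -0.93.

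The kidney was the tissue closest to liver. It was the highest other tissue for 325 (45.4%) of the 716 higher genes, against 187 for heart, 139 for lung and 65 for brain. Against each tissue alone, at 1 log2 unit and an adjusted p under 0.05, liver was higher for 1286 genes (7.52%) and lower for 2178 (12.7%) in kidney, for 2003 (11.7%) and 2659 (15.6%) in heart, for 2065 (12.1%) and 3338 (19.5%) in lung, and for 2880 (16.8%) and 3480 (20.4%) in brain. Liver was higher than brain, heart and lung but not kidney for 430 genes, and 148 genes were missed only because of lung, 89 because of heart and 59 because of brain. These 4 comparisons share the same 8 livers.

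The genes with the greatest lead over every other tissue were secreted proteins and enzymes of hepatocytes. Apof, a lipid transfer inhibitor protein, read 12.15 in the lowest liver, 12.51 at the median and 12.62 in the highest, and no other array exceeded 6.72, that of the heart of male 903. It stood 8.85 ± 0.28 above the heart, 461-fold (limma adjusted p = 1.9e-25), and 9.27 without that array. The fibrinogen beta chain, Fgb, read 13.04, 13.11 and 13.26 and stood 8.85 ± 0.47 above the next tissue (adjusted p = 2.4e-18). The next 13 genes stood 8.28 to 8.71 above the next tissue. They were plasminogen (Plg), prothrombin (F2), antithrombin (Serpinc1), the protease inhibitor precursor Ambp and mannose-binding lectin (Mbl2) among secreted proteins, the tryptophan dioxygenase Tdo2, the urate oxidase Uox, the urea cycle enzyme Otc, the carboxylesterase Ces3b, the bile acid ligase Slc27a5, the glucuronosyltransferase Ugt2b5, the P450 enzyme Cyp3a25, and the lipid droplet protein Hsd17b13. Heart was the highest other tissue for 14 of these 15. Without male 903 they stood 8.28 to 9.27 above the next tissue, and 10 of them remained among the 15 with the greatest lead.

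The bases before the start sites of some genes at both ends are shown, because factors abundant in hepatocytes are known to bind certain letters there. Stretches were read for 12 genes higher in liver, of which 6 held a match to the letters searched and Ces1c, Cyp2b9, Otc, Pklr, Tat and Tdo2 held none, and for 3 lower genes, of which Enah held a match and Ldhb and Oxct1 none. Those printed were chosen after the matches were seen, 4 higher genes with more than 1 of the factors' letters and Otc without, and Enah and Oxct1 among the lower genes. Each line gives the 140 bases up to the start site of the RefSeq transcript in GRCm38.p6, 5′ to 3′ on the gene's strand. Capitals mark matches on either strand to GTTAAT (part of the site of HNF1), TTNNGCAA (C/EBP), CAAAGTNCA (HNF4), TGTTTNC (FOXA) or GGGCGG (GC box).
Alb: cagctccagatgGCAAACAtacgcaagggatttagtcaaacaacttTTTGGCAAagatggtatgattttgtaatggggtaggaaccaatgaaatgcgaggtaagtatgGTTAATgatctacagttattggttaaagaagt
Fgb: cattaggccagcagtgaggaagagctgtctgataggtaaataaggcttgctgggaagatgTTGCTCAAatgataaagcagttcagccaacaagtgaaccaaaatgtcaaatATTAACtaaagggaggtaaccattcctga
Serpina1b: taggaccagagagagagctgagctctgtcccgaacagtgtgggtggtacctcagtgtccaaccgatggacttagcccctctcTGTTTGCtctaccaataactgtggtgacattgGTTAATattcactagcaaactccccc
F9: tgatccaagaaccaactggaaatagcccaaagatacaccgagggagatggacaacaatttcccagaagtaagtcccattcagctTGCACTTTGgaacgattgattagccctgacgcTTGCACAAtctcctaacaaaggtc
Otc: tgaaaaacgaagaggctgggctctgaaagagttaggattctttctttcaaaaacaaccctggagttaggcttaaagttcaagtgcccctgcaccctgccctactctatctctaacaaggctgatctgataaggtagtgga
Enah: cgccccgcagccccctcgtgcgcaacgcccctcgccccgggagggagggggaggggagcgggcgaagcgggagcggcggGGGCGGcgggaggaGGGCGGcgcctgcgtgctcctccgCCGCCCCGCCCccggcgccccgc
Oxct1: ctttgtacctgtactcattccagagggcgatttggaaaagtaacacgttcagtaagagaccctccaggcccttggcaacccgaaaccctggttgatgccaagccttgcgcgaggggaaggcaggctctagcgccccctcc
The Alb stretch is chr5:90460730-90460869 on the plus strand and holds an HNF1 part site from -32, a C/EBP match from -94 and a FOXA match from -128, counted from the start site. The Fgb stretch is chr3:83049864-83050003 on the minus strand, with HNF1 at -29 and C/EBP at -80. Serpina1b, which encodes an alpha-1 antitrypsin, lies at chr12:103738190-103738329 on the minus strand, with HNF1 at -26 and FOXA at -58. The stretch of F9, coagulation factor IX, is chrX:59999324-59999463 on the plus strand, with C/EBP at -24 and HNF4 at -56. Enah, chr1:182019981-182020120 on the minus strand, holds 4 GC boxes and no match to the other letters. The stretches of Otc, chrX:10252165-10252304, and Oxct1, chr15:4026288-4026427, both on the plus strand, hold none of the letters. F9 read 10.93, 11.19 and 11.35 in the lowest, median and highest liver and 7.69 ± 0.13 above the heart, and Serpina1b read 13.32, 13.46 and 13.53 and 7.13 ± 0.63 above the kidney.

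The same letters were counted in windows from 250 bases before to 50 after the start site. RefSeq promoters were at hand for 447 of the 573 genes higher in both sexes (585 promoters), 383 of the 478 lower in both (558 promoters) and 13514 of all genes (16953 promoters). The HNF1 part site was in 9.7% of the promoters of higher genes, 4.3% of those of lower genes and 5.2% of all. The C/EBP letters were in 19.0%, 6.6% and 9.3%, the HNF4 letters in 4.6%, 1.3% and 1.3%, and the FOXA letters in 25.3%, 13.6% and 16.7%. Both strands were searched, and a C/EBP match followed by ACA also holds a FOXA match. The TATA box letters TATAAA were in 17.1%, 10.2% and 10.0%. The GC box ran the other way, with 36.2% of the promoters of higher genes, 63.6% of those of lower genes and 52.3% of all. These shares describe letters in windows, were not tested, and do not show a bound factor.

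Most plasma proteins, coagulation factors and lipoprotein genes were among the higher genes. The liver minus highest other tissue had a median of -0.56 over all 17097 genes. Of 31 measured plasma transport proteins and protease inhibitors 29 were higher in liver in both sexes, with a median difference of 5.02. Those that did not pass were transthyretin (Ttr), 0.70 ± 0.57 above the brain, whose choroid plexus also makes it, and haptoglobin (Hp), 0.54 ± 0.35 above the lung. Both were far above the lowest tissue, by 9.69 and 9.35. Of 21 coagulation factors and inhibitors of hepatocytes 19 were higher in both sexes (median 5.98). The others were F13b, 0.66 ± 0.16 above the kidney, and protein S (Pros1), -0.06 ± 0.10 from the lung.

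Of the coagulation genes of vessels and blood cells 3 of 11 were lower in liver in both sexes. The median of the list was -3.09 from the highest other tissue and 0.47 from the lowest, against -0.56 and 0.33 over all genes. Plat, the tissue plasminogen activator, read 3.34 in the lowest liver, 3.63 at the median and 4.0 in the highest, and lay -4.02 ± 0.13 under the heart, its lowest other tissue (adjusted p = 9.2e-25). Tissue factor (F3) lay -2.21 ± 0.16 under the kidney and thrombomodulin (Thbd), the thrombin receptor of endothelium, -1.45 ± 0.17 under the brain. F8, factor VIII of sinusoidal endothelium, was the one member that was higher, by 1.10 ± 0.16 over the kidney. The rule held for F8 in females only, at 1.47, against 0.74 in males. Over both sexes F8 stood at 0.88 without the 3 livers with pancreatic signal and 0.82 without the 2 livers with skeletal muscle signal. It stood at 0.94 without the liver of male 1262 and 0.89 in the knockout arrays. Each of these values was short of the minimum of 1.

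Apolipoproteins and their partners followed the plasma proteins, with 19 of 24 lipoprotein genes higher in both sexes (median 4.10). Apoa1, the main protein of high-density lipoprotein, read 13.09 to 13.54 in liver and 8.06 ± 0.57 above the heart, or 8.87 without male 903. Apob, which lies 4.28 above the kidney, and the lipid transfer protein Mttp, 3.72 above it, are needed to assemble very-low-density lipoprotein. Apoe, which astrocytes also make, stood 1.40 above the brain. The VLDL receptor Vldlr read 3.78, 5.18 and 6.84 in the lowest, median and highest liver and lay -2.64 ± 0.15 under the lung (adjusted p = 2.9e-17), and lipoprotein lipase (Lpl) lay -4.08 under the heart without being lowest in liver.

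Of 25 measured complement genes 18 were higher in liver, 16 of them in both sexes (median 1.97). Mbl2, C9 and C4bp led, 8.29, 8.24 and 7.53 above the heart. The 3 chains of C1q, which macrophages make, did not pass, with differences of 0.12 to 0.18 to the heart, and the membrane regulators Cd59a and Cd55 stood at -0.12 and -1.63 against their highest tissue. C6 passed in males only and the properdin gene Cfp in females only. Of 24 acute phase and iron genes 17 were higher in both sexes (median 3.52), among them hemopexin (Hpx), 8.06 (8.78 without male 903), Saa4, 7.82, and C-reactive protein (Crp), 7.43 above the heart. The iron hormone Hamp stood 4.36 above the heart, and the transferrin receptor Tfr2 stood 6.35 above the brain, whereas Tfrc, the receptor of most other cells, was lower in liver than in each other tissue by the rule in males only, -1.15 under the kidney, or -0.97 without the liver of female 876.

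**Figure D3:**
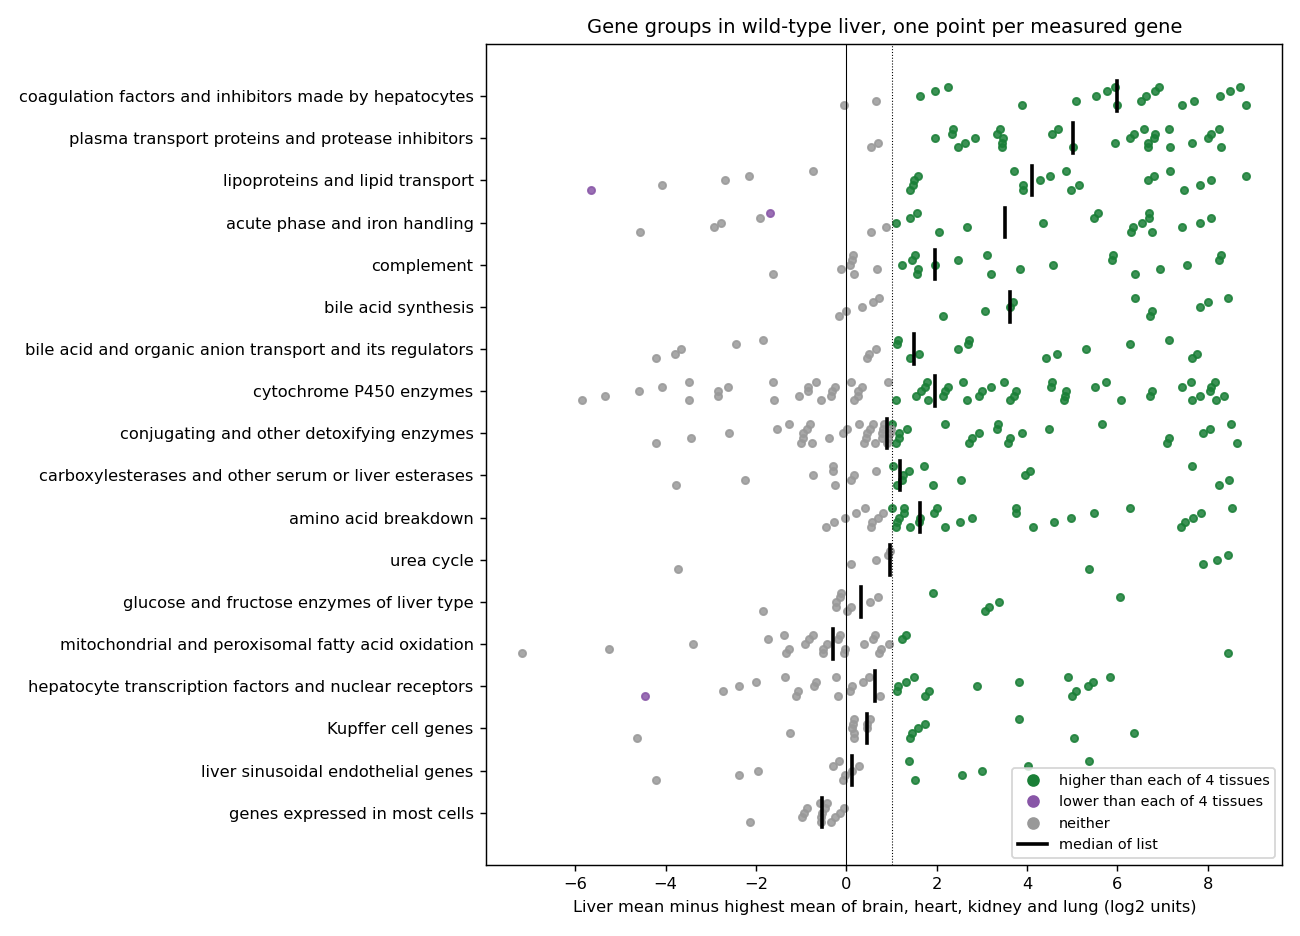
Liver minus the highest other tissue, in log2 units, for the measured genes of 18 lists, 1 point per gene, with the median of each list marked. Coagulation factors, plasma proteins and apolipoproteins lie mostly at 4 or more, and the genes expressed in most cells lie at -2.14 to -0.06.

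Esterases are the family to which the series' targeted gene belongs. Of 22 measured members 13 were higher in liver, 10 of them in both sexes (median 1.18). Ces3b, at 8.47 ± 0.42 over the heart (9.13 without male 903), Ces1c, at 8.24, and Ces2a, at 7.64 ± 0.14, were far above every tissue. Ces1g stood 4.06 ± 0.32, Ces2e 3.95 ± 0.16 and Ces1e 1.12 ± 0.16 above the kidney. Not all close relatives of Ces1c were enriched in liver. Ces1d read 11.10 to 11.62 in liver and 11.31 to 12.01 in lung, -0.26 ± 0.12 from the lung, and Ces1f stood 0.65 ± 0.31 above the kidney, which read 9.0 to 9.47 in females and 11.79 to 11.92 in males. Ces1f was 1.77 above the highest other tissue in females and -0.47 in males.

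Outside the carboxylesterases, the plasma esterases butyrylcholinesterase (Bche) and paraoxonase 1 (Pon1) were higher in liver in both sexes. Bche read 9.53 to 10.65 in liver and stood 2.54 ± 0.14 above the heart (adjusted p = 1.1e-17). Pon1 read 12.35 to 12.70 and stood 1.91 ± 0.36 above the lung (adjusted p = 4.2e-05). Aadac, an esterase of the endoplasmic reticulum, stood 1.24 ± 0.19 above the kidney. The acetylcholinesterase of synapses, Ache, was near the lower end of the array in liver at 3.26 to 3.73, -3.78 from the brain. Cel, a lipase of pancreatic acinar cells, was called at 1.39 ± 0.43 with 8 livers. It stood at 0.01 without the 3 livers with pancreatic signal, and at 0.91 without that of male 1262 and 1.01 (adjusted p = 0.051) without that of female 1264, neither of which passed.

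The urea cycle had steps far higher in liver and steps shared with the kidney. Of 9 genes 4 were higher in liver than in each tissue, in both sexes (median 0.96), and 3 more were higher than brain, heart and lung but not kidney. Otc stood 8.44 ± 0.29, arginase (Arg1) 8.21 ± 0.37, Cps1 7.89 ± 0.41 and Nags, which makes the activator of Cps1, 5.36 ± 0.09 above the next tissue. The middle steps were shared with kidney, the site of arginine synthesis from citrulline. Ass1 read 11.88 to 12.55 in liver and stood 0.11 ± 0.28 above the kidney, Asl stood 0.96 ± 0.14 and the ornithine carrier Slc25a15 0.93 ± 0.07 above it. The aspartate carrier Slc25a13 stood 0.65 ± 0.11 above the heart. Arg2, the arginase of mitochondria outside the liver, read 3.22 to 3.47 in liver and lay -3.72 ± 0.12 from the kidney.

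Enzymes that break down amino acids were higher in liver for 26 of 35 genes, 21 in both sexes (median 1.63), and the other 9 were all higher than brain, heart and lung but not kidney. Tdo2 (tryptophan), histidine ammonia lyase (Hal) and the tyrosine aminotransferase Tat stood 8.53, 7.85 and 7.67 above the heart. Tat read 11.21, 11.69 and 12.11 in the lowest, median and highest liver, and no other array exceeded 5.67. The methionine cycle enzymes Mat1a and Gnmt stood 7.50 above the lung and 4.59 above the kidney. The late tyrosine enzymes Fah and Hgd stood 0.70 and 0.54 above the kidney and did not pass. No gene passed in either direction among 13 amino acid enzymes used mainly outside the liver, such as the serine synthesis enzyme Psat1 and the brain's glutamate decarboxylase Gad1, and their median was -2.88.

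Sugar metabolism separated into the isoforms of liver and those of other organs. Glucokinase regulator (Gckr) read 9.35, 9.57 and 9.88 in the lowest, median and highest liver, against 3.26 to 3.87 in all other arrays, 6.05 ± 0.08 above the heart (limma adjusted p = 5.2e-37). The liver pyruvate kinase Pklr stood 3.38 ± 0.13 above the kidney, liver glycogen phosphorylase (Pygl) 3.16 ± 0.16 above the lung and liver glycogen synthase (Gys2) 3.06 ± 0.14 above the kidney. In all, 5 of 14 liver-type genes were higher in both sexes (median 0.31), and 7 more were higher than every tissue but the kidney. Those 7 included enzymes of gluconeogenesis, which kidney also performs. Fbp1 read 12.63 to 12.99 in liver and 12.79 to 13.06 in kidney, a difference of -0.13 ± 0.38, and G6pc differed from kidney by -0.22 ± 0.16. Pck1 read only 3.13 to 4.78 in liver and 2.90 to 4.48 in kidney on its 1 probe set.

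The forms of other organs were lower in part. Of 21 glucose enzymes and transporters of other organs 7 were lower than in each other tissue, 6 in both sexes, and none was higher (median minus the highest other tissue -5.28). The common pyruvate kinase Pkm read 5.40, 6.15 and 7.13 in the lowest, median and highest liver, against 9.42 to 11.69 in the other arrays, and lay -3.44 ± 0.10 under the lung (adjusted p = 3.4e-25). Hexokinase 1 (Hk1) read 4.52 to 5.35 and lay -2.94 ± 0.09 under the lung, the phosphofructokinase Pfkp -3.56 ± 0.12 under it, and the glycogen phosphorylase of brain, Pygb, -2.31 ± 0.10 under the kidney. The heart-type lactate dehydrogenase subunit Ldhb read 5.46, 6.32 and 6.66 against 10.56 to 12.95 elsewhere, -4.77 ± 0.13 under the lung (adjusted p = 1.5e-26). Its muscle-type partner Ldha differed from the heart by 0.01 ± 0.08 and did not pass. Aldoa, the muscle aldolase, lay -1.69 ± 0.10 under the lung on 4 of 4 probe sets. Without the 3 lungs with skeletal muscle signal Ldhb, Pkm, Hk1 and Aldoa lay -4.67, -3.43, -2.90 and -1.63 under their lowest other tissue. Heart muscle markers were raised in the remaining lungs as well, and their part in these values was not tested.

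Ketone body use showed the same separation at 1 step. Oxct1, the transferase that other organs need to burn ketone bodies, read 5.33, 5.86 and 6.88 in the lowest, median and highest liver, and 9.44 to 12.69 in the other arrays. It lay -3.85 ± 0.12 under the lung, its lowest other tissue, and -6.54 from the kidney, and all 4 of its probe sets were lowest in liver. Acat1, which works in both directions, differed from the kidney by -0.12 ± 0.08, and Bdh2 was -3.04 ± 0.09 from the kidney. Of the 3 measured genes of ketone body synthesis and export, Acat1, Slc16a1 and Slc16a6, none passed. Only 3 of 6 listed genes of synthesis had a probe set assigned to 1 gene.

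Fatty acid oxidation was a shared function, with 3 of 26 genes higher in liver than in each tissue (2 in both sexes, median -0.31) and 9 more higher than every tissue but the kidney. The regulator Ppara stood 1.33 ± 0.13 above the kidney. The carnitine transferase of liver, Cpt1a, differed from kidney by -0.04, while the muscle form Cpt1b lay -7.17 from the heart and the brain form Cpt1c -5.26 from the brain, both near the lower end of the array in liver. The fatty acid binding proteins were divided. Fabp1 read 12.88 to 13.25 in liver, 7.28 ± 0.54 above the lung. Fabp3, the heart form, read 3.13, 3.90 and 6.34 in the lowest, median and highest liver. It lay -4.44 ± 0.27 under the lung (limma adjusted p = 1.8e-16), or -4.47 without the 3 lungs with skeletal muscle signal. Heart muscle markers were raised in the remaining lungs too, and their part in the Fabp3 difference was not tested.

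Creatine metabolism was divided by step. Gamt, the last enzyme of creatine synthesis, read 10.37 to 11.07 and stood 3.71 ± 0.14 above the kidney (adjusted p = 4.6e-23). The creatine transporter Slc6a8, by which other tissues take creatine up, read 4.04, 5.53 and 5.91 in the lowest, median and highest liver and lay -2.57 ± 0.14 under the lung (adjusted p = 1.4e-17). The muscle creatine kinases Ckm and Ckmt2 were -8.21 and -8.78 from the heart, and their highest livers, at 6.61 and 6.19, were above medians of 3.99 and 3.39. Skeletal muscle genes were raised in 2 of the livers, and their part in those values was not tested. Among mitochondrial carriers, the heart and muscle form of the ADP/ATP carrier, Slc25a4, lay -4.49 ± 0.18 under the lung (adjusted p = 2e-21). Without the 3 lungs with skeletal muscle signal Slc25a4 and Slc6a8 lay at -4.44 and -2.64. The remaining lungs also had raised heart muscle markers, whose part in these values was not tested. The common form Slc25a5 was -0.55 from the kidney.

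**Figure D4:**
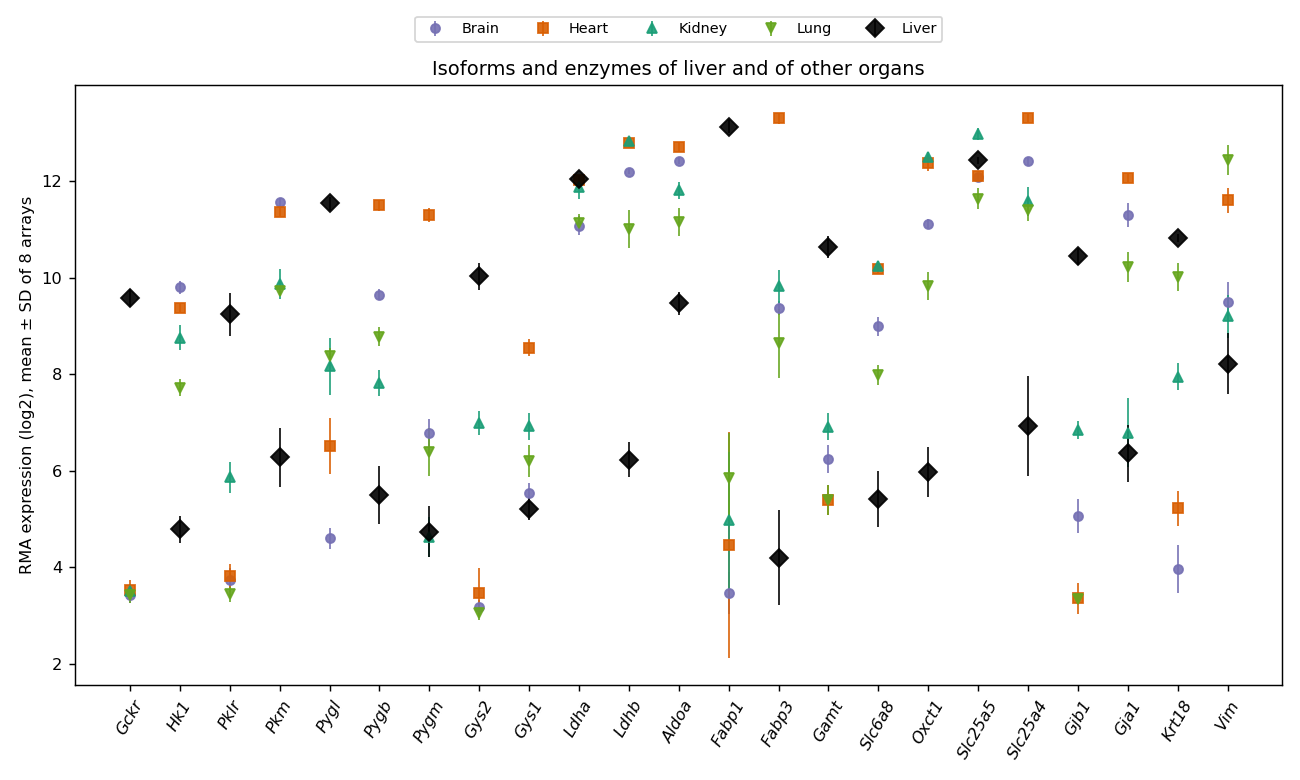
Mean log2 expression with SD over 8 WT arrays in each of the 5 tissues, for 23 genes of sugar, ketone body, fatty acid and creatine metabolism, mitochondrial carriers, gap junctions and filaments. Gckr, Pklr, Pygl, Gys2, Fabp1 and Gamt are highest in liver, and Pkm, Hk1, Pygb, Ldhb, Oxct1, Fabp3 and Slc6a8 are lowest there.

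Bile acid synthesis was higher in liver for 10 of 15 genes, 9 in both sexes (median 3.63), and 4 of the other 5 were higher than every tissue but the kidney. Cyp7a1, the rate-limiting enzyme, read 9.57, 10.10 and 10.65 in the lowest, median and highest liver and stood 6.77 ± 0.09 above the heart. The conjugating steps stood 8.44 (Slc27a5) and 6.38 (Baat) above their next tissue. Cyp8b1, which sets the share of cholic acid, stood 6.73 above the kidney. Cyp7b1, of the alternative pathway, was higher in liver over both sexes, 2.14 ± 0.26 above the kidney, but in males by only 0.34. Of 22 genes of bile acid and organic anion transport 14 were higher, 11 in both sexes (median 1.51). The sodium-dependent uptake carrier Slc10a1, the organic anion carrier Slco1b2 and the bile salt export pump Abcb11 led at 7.75, 7.65 and 7.15. Slc51a and Slc51b, the exporter of intestine and kidney, read 3.49 to 4.07 and 3.94 to 5.30 in liver and were -4.21 and -3.79 from the kidney.

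Cytochrome P450 genes were the largest list, with 37 of 62 measured members higher in liver, 27 in both sexes, and none lower (median 1.97). Cyp3a25, Cyp2c50 and Cyp2d10 led at 8.35, 8.17 and 8.15 above the heart, and Cyp2c50 stood at 8.78 without the heart of male 903. Cyp1a2 read 11.39, 12.08 and 12.18 and stood 8.08 ± 0.27 above it. Members with set roles elsewhere were not enriched in liver, such as the vitamin D hydroxylase Cyp24a1, -5.85 from the kidney, and the cholesterol hydroxylase Cyp46a1, -5.35 from the brain. Of 51 conjugating and other detoxifying enzymes 22 were higher, 16 in both sexes (median 0.90), and 12 more were higher than every tissue but the kidney. Ugt2b5, Uox and Ugt2a3 led at 8.65, 8.52 and 8.04. The lung flavin monooxygenase Fmo2 was -4.21 from the lung, and Nat8 was -3.43 from the kidney.

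Regulators of hepatocyte genes were in part shared with other organs. Of 30 transcription factors and nuclear receptors 14 were higher in liver, 12 in both sexes, and 1 was lower (median 0.63). Foxa3 read 8.41, 9.28 and 10.11 in the lowest, median and highest liver and stood 5.83 ± 0.11 above the lung. The xenobiotic receptor CAR (Nr1i3) stood 5.45 ± 0.10 above the kidney and Creb3l3 5.35 ± 0.12 above the heart. Hnf4a, which is required in hepatocytes and in kidney tubules, read 10.69 to 11.15 in liver and 10.86 to 11.33 in kidney, a difference of -0.23 ± 0.18. Foxa2 and Cebpb differed from lung by 0.13 and 0.07. Tox3 was lower in liver than in each tissue, -2.49 ± 0.12 under the heart.

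Of 22 genes listed under receptors for circulating hormones 5 were higher in liver and 3 lower, against 4.19% and 3.41% of all genes. The greatest lead in the list, 6.57 ± 0.26 above the next tissue, was that of Asgr1. Asgr1 and Asgr2, which stood at 5.46 ± 0.08, are subunits of the asialoglycoprotein receptor. It clears plasma proteins and is not a hormone receptor. Egfr stood 3.12 ± 0.16 and the glucagon receptor Gcgr 2.55 ± 0.12 above the kidney. The liver makes insulin-like growth factor 1, and Igf1 read 11.69, 11.85 and 11.99, 3.45 ± 0.14 above the heart. The receptor Igf1r read 3.75, 4.21 and 4.87 in the lowest, median and highest liver, against 6.83 to 9.84 in the other arrays, and lay -3.15 ± 0.12 under the heart (adjusted p = 3.4e-22), with 3 of 4 probe sets lowest in liver. The thyroid hormone receptor Thra lay -1.74 ± 0.09 under the kidney.

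Zone markers of the hepatocyte and genes of other liver cells were examined next. Of 18 pericentral genes 10 were higher in liver, 7 in both sexes (median 1.14), and of 16 periportal genes 9, 8 in both sexes (median 1.46). Among Kupffer cell genes 7 of 17 were higher, 5 in both sexes (median 0.46). Cd5l read 9.58, 10.53 and 11.17 and stood 6.36 ± 0.17 above the lung, the lectin Clec4f stood 5.04 ± 0.09 above the kidney and the complement receptor Vsig4 3.83 ± 0.13 above the heart. Macrophage genes that other organs share, such as Csf1r and Adgre1, differed from the highest tissue by 0.18 and 0.46 and did not pass.

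Of 15 sinusoidal endothelial genes 6 were higher, 5 in both sexes (median 0.12), led by Clec4g, 5.37 ± 0.16 above the heart, and the hyaluronan receptor Stab2, 2.55 above the kidney. Lyve1, shared with lymphatic vessels, was -4.21 from the lung. Stellate cell genes gave 3 of 14 in both sexes (median -0.25), with Colec10 4.09 ± 0.12 above the lung. The bile duct markers Krt7, Krt19 and Sox9 were -6.90, -5.76 and -1.85 from their highest tissue, and 1 of 10 genes of that list, Tff3, was called in both sexes. In the knockout arrays, and in the WT arrays without the 2 livers or the 3 lungs with skeletal muscle signal, no gene of that list was called in both sexes.

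The genes with the greatest deficit in liver included regulators of the cytoskeleton, secretory and membrane proteins, and enzymes and carriers of energy metabolism. Enah, a regulator of actin filament growth, read 3.43, 4.10 and 4.96 in the lowest, median and highest liver and 9.07 to 10.89 in all other arrays. It lay -5.33 ± 0.14 under the kidney, 40.2-fold (limma adjusted p = 1.5e-26), on 4 of 4 probe sets. Mal, a membrane protein of myelin and of renal epithelium, read 3.12 to 3.84 and lay -4.78 ± 0.09 under the heart. Carboxypeptidase E (Cpe), which processes peptide hormones, read 2.41 to 4.28 and lay -4.72 ± 0.19 under the kidney. The microtubule protein tau (Mapt), known best from neurons, lay -4.59 ± 0.09 under the heart, and on the same probe set heart, kidney and lung read 8.40 to 9.27.

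The other genes of the 15 with the greatest deficit were Ldhb, Slc25a4, Fabp3, Plat and Oxct1, described already, and Pgap4 (-4.55), Spon1 (-4.38), Mfap3l (-4.33), Cryab (-4.25), Snn (-3.75) and Cd34 (-3.72). Pgap4 acts on the side chain of GPI anchors, Spon1 is a matrix protein, Cryab is a small heat shock protein and Cd34 marks the endothelium of most organs. The 2 probe sets of Snn went opposite ways, so its call rests on 1 of them. Cd34 read 2.81 to 3.93 in liver and 5.86 to 10.21 in the other arrays.

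Some structural genes were among the lower genes too. By the same rule 3.41% of all genes were lower. Over all genes the median was -0.56 from the highest other tissue and 0.33 from the lowest. Of 9 caveolar genes 3 were lower in liver in both sexes and none was higher. Their median was -5.20 from the highest other tissue and 0.16 from the lowest, so the typical member was not lowest in liver. Caveolin 1 (Cav1) read 4.41, 5.22 and 6.20 and lay -1.67 ± 0.16 under the brain and -6.86 from the lung, and Cav2 lay -2.74 ± 0.14 under the brain. Of 32 matrix genes 4 were lower, 3 in both sexes, and 2 were higher. Their median was -3.25 from the highest other tissue and 0.51 from the lowest, above the 0.33 of all genes, so the typical matrix gene was not lowest in liver. Mgp lay -2.71 ± 0.17 under the brain and Sparcl1 -2.50 ± 0.18 under the kidney, while fibronectin (Fn1), which hepatocytes secrete into plasma, stood 1.76 ± 0.16 above the lung, and Col18a1, the source of endostatin, 1.58 above the kidney. Among 31 actin, tubulin and filament genes 3 were lower, Acta2, Tuba1a and Tmsb10, and none was higher (median -2.47 from the highest other tissue, 0.3 from the lowest). The count of lower filament genes was 5 without the 2 livers with skeletal muscle signal. Tmsb10, at -1.05, was -1.0 without the liver of male 902 and no longer called. The hepatocyte keratins Krt8 and Krt18 stood 0.14 and 0.79 above the lung.

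Junction genes differed by subunit. The gap junction proteins of hepatocytes, Gjb1 and Gjb2, stood 3.59 ± 0.11 and 1.47 above the kidney, and Gjc1 lay -1.91 ± 0.14 under it. Cldn14 and Cldn1 were the other 2 of 4 higher junction genes of 22. Of 23 channel and sodium pump subunits 3 were lower and none was higher, with Atp1b1 at 9.22 to 10.02 in liver, -1.57 ± 0.07 under the heart. The median of these subunits was -5.01 from the highest other tissue and 0.06 from the lowest, against -0.56 and 0.33 over all genes. Of 14 genes expressed in most cells none was called, and their median of -0.55 was that of all genes to within 0.01.

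Male and female livers were then compared directly, since a gene can pass the tissue rule in 1 sex only. In 4 male against 4 female WT livers 97 genes (0.567%) were higher in males and 235 (1.37%) higher in females, at 1 log2 unit and a limma adjusted p under 0.05. Of the male-high genes 29 were among the 716 higher in liver and 3 lay on the Y chromosome. Of the female-high genes 34 were among the 716, 21 among the 583 and 9 lay on the X chromosome. Groups of 4 and 4 did not overlap for 79 and 184 of them. These genes were picked on the same values, which favours such separation, and the share over all genes is not given. Derl3 (1.0023) and Rassf3 (0.9992) lay just inside and outside the male threshold, and Hacl1 (-1.0004) and Phf11a (-0.9999) the female one. Without the livers of females 1264 and 1265 the counts were 99 and 173, of which 81 and 145 were among the 97 and 235. Without the 3 livers with pancreatic signal they were 111 and 339, with 81 and 213 shared. In the knockout livers they were 99 and 175, with only 50 and 90 shared, so similar totals there did not mean the same genes. Derl3 did not reach the minimum without any 1 of 5 livers (down to 0.72), nor Hacl1 without any 1 of 5 (down to -0.82).

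The greatest difference toward males was in Hsd3b5, a steroid dehydrogenase, which read 2.80 to 3.49 in female and 11.25 to 11.43 in male livers, a male minus female difference of 8.16 ± 0.24 (limma adjusted p = 5.6e-25). The omega-hydroxylase Cyp4a12a read 3.30 to 3.92 in females and 11.32 to 11.75 in males (7.88 ± 0.38), and the fatty acid elongase Elovl3 4.09 to 5.95 and 10.48 to 10.90 (5.75 ± 0.32). Serpina4-ps1 (5.13), Nat8 (4.32), Susd4 (3.88), Nat8f5 (3.64), C6 (3.09), Sdr9c7 (1.88) and Slc35e3 (1.52) make up the 10 with the smallest p. None of these 10, picked by p from the same values, had a female liver that reached the lowest male liver.

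Toward females, the sulfotransferase Sult2a2 read 10.10 to 11.30 in female and 3.16 to 3.65 in male livers, a male minus female difference of -7.49 ± 0.15 (limma adjusted p = 1.4e-29). Sult3a1 (-6.78), the P450 genes Cyp3a41a (-6.69), Cyp2b9 (-6.59), Cyp2b13 (-6.22), Cyp3a16 (-5.44) and Cyp17a1 (-5.10), the peroxisomal oxidase Hao2 (-5.77), Nipal1 (-4.40) and Tafa2 (-3.88) followed. Of 62 P450 genes 13 were female-high and 5 male-high, and without the 3 livers with pancreatic signal 13 and 3. Of 32 measured genes listed as higher in livers of female mice 29 were female-high, and of 31 listed as higher in males 16 were male-high and 1, Sall1, was female-high. Both lists were written with earlier results of these data known and support nothing by themselves.

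Among the genes named here, sex changed which counted as liver-enriched in 2 ways. Some genes were at liver level in 1 sex only. Sult2a2 stood 7.64 above the highest other tissue in females and 0.13 in males, Cyp2b9 7.04 and 0.36, and Hsd3b5 -0.32 and 7.79. Cyp3a41a and Cyp17a1 passed in both sexes, since male livers at 5.05 to 6.79 and 4.68 to 6.50 were still above the other tissues. For others the livers of both sexes overlapped and the kidneys did not. Acsm3, a medium-chain acyl-CoA synthetase, read 9.41 to 9.79 in female and 9.55 to 10.11 in male livers, and 4.26 to 5.86 in female and 11.47 to 12.30 in male kidneys. It stood 4.48 above the next tissue in females and -2.24 in males. Over both sexes its lead of 1.12 was 0.97 without the kidney of female 876. Cyp2e1, the ethanol-oxidising P450, read 12.68 to 12.92 in all 8 livers, 9.19 to 10.26 in female and 12.07 to 12.56 in male kidneys, and stood 3.12 above the next tissue in females and 0.34 in males. Dio1, the thyroid hormone deiodinase, went the other way, 0.62 in females and 2.75 in males, with kidneys at 8.88 to 9.74 and 6.92 to 8.33.

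The organic anion carrier Slco1a1 and Cyp7b1 combined both. They were higher in male than in female liver by 4.56 ± 0.45 and 2.56 ± 0.36 (limma adjusted p = 2.9e-09 and 4.8e-06). That of Slco1a1 was 3.74 without the liver of female 936 and 5.26 without that of female 1265. Both passed the tissue rule in females only, at 2.49 and 1.88 above the next tissue against 0.15 and 0.34 in males. Over both sexes Slco1a1 stood 1.40 above the kidney, and 0.82 without the livers of females 1264 and 1265. It read 3.49 to 4.02 in female and 10.51 to 11.01 in male kidneys, and Cyp7b1 5.17 to 5.56 and 11.44 to 11.59. Of the 95 genes higher in females only, 22 had a difference between the sexes in liver that differed from that in the other tissues, and of the 43 higher in males only, 12 did. For the rest no such difference was shown. The female minus male difference in the lead had a median of 0.63 in the 95 and -0.49 in the 43. Some genes lay close to the minimum of 1 in each sex, such as Ap3m1 at 1.074 in females and 0.986 in males.

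**Figure D5:**
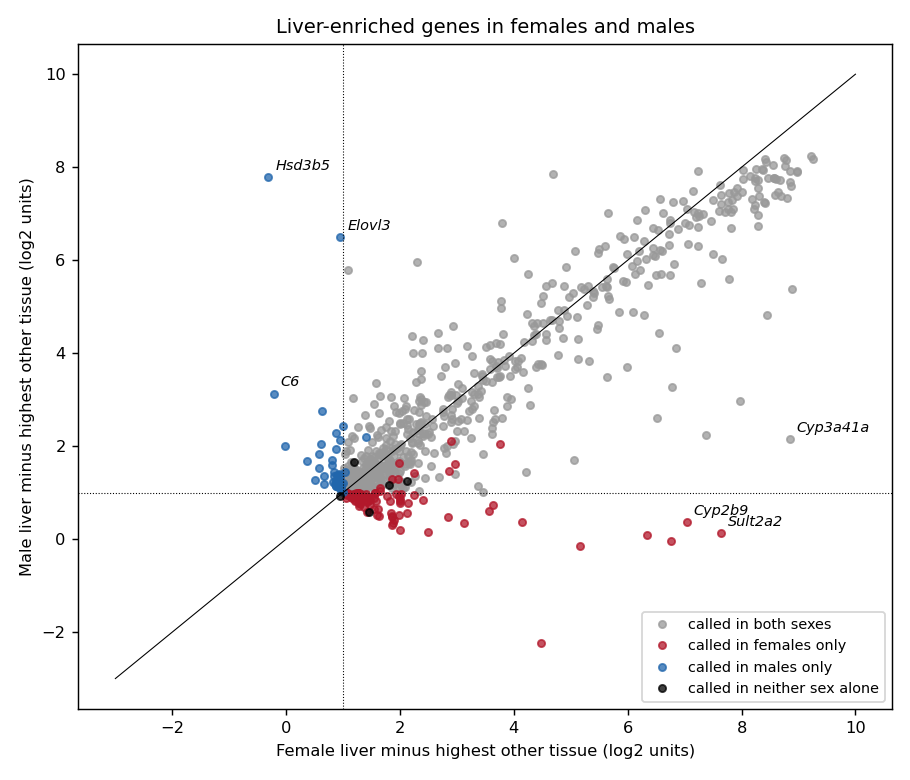
Female against male liver minus the highest other tissue, in log2 units, for the 716 genes higher in liver, 1 point per gene, with genes called in both sexes, 1 sex or neither marked apart. Most points lie along the diagonal, Sult2a2 and Cyp2b9 lie at 7.64 and 7.04 in females and near 0 in males, and Hsd3b5 at 7.79 in males and near 0 in females.

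The sex difference in liver was tested against its mean over brain, heart, kidney and lung. The contrast, liver minus that mean, was toward males for 376 genes (2.2%) and toward females for 470 (2.75%), at an adjusted p under 0.05 with no minimum size. A sex difference in another tissue also enters this contrast, so these counts are not counts of sex differences in liver. Of the male-high and female-high liver genes 89 of 97 and 178 of 235 passed this test in the same direction. The largest contrasts were 8.14 ± 0.26 for Hsd3b5 and -7.46 ± 0.17 for Sult2a2. Without the livers of females 1264 and 1265, which carry skeletal muscle signal, the count toward females was 296, with 2 female livers left. Leaving out 1 array at a time gave 340 to 631 toward females and 255 to 443 toward males.

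Of the 17 Kupffer cell genes 7 were female-high and 1, C6, male-high. The female-high count was 2 without the livers of females 1264 and 1265, 11 without the 3 livers with pancreatic signal, and 0 in the knockout livers, where 4 livers were compared with 4. Marco, a scavenger receptor, read 5.98 to 8.90 in female and 4.85 to 5.21 in male livers (-2.68 ± 0.36, limma adjusted p = 1.6e-06), Timd4 5.48 to 6.60 and 3.95 to 5.43 (-1.80 ± 0.21), and Cd5l 10.69 to 11.17 and 9.58 to 10.38 (-1.07 ± 0.24). The male and female WT livers did not overlap for Marco, Timd4 and Cd5l. Without females 1264 and 1265 the differences were -1.77, -1.52 and -0.89, of which that of Cd5l no longer passed, and in the knockout livers they were 0.87, -0.58 and 0.00, none of which passed. Cd5l also fell short of the minimum without the liver of male 901 (-0.97), male 903 (-0.99) or female 1264 (-0.99). Clec4f, at -0.94 ± 0.12, passed the p threshold and lay just short of 1 log2 unit.

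The knockout arrays of the series give the same tissues from other animals. By the same rule 707 genes were higher in knockout liver, of which 661 were among the 716, and 637 were lower, of which 536 were among the 583. In both sexes the counts were 568, with 522 shared, and 492, with 421 shared. Genes higher in liver also lay beside each other on chromosomes. Of 712 that could be placed 195 (27.4%) had an adjacent measured gene that was also higher in liver, against 7.98% of all 16937 placed genes. For the lower genes the shares were 7.75% and 6.68%. This was not tested, and neighbouring members of 1 gene family can share sequence and so part of a probe set's signal.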

How the data were processed

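The series read RNA of 80 tissue samples on HT MG-430 PM arrays, of which the 40 wild-type (WT) arrays were used here, grouped by the tissue and sex in their titles, 4 per group. Per the submitters' processing notes, the tools were Partek, RMA and Affymetrix Expression Console, without stated versions, and the authors deposited log2 expression values per probe set. Whether all tissues were normalised together is not given in the sources used here. The number of arrays limits the precision, and a summarised log2 value gives no counting error.

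The 45141 probe sets included 104 controls, which were not used. Of the rest, 28898 had 1 gene in the annotation, 551 several and 15588 none, and 28689 of the first were found by gene ID in the gene table of GRCm38.p6. Each gene was read from its brightest probe set, by the mean of the 80 arrays, for 17097 genes in all, and 7180 had more than 1 probe set.

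Linear models with group means of tissue by sex were fitted with limma 3.58.1 in R 4.3.3, with eBayes and Benjamini-Hochberg adjustment over all genes, and were tested on simulated data. A gene was called at an adjusted p under 0.05 and a log2 difference of at least 1, without a size minimum for the interaction of sex and tissue. Tables and figures were made with the R package data.table (version 1.17.8), Python 3.11.15, pandas 2.3.3, numpy 2.4.6 and matplotlib 3.10.9. Of 1063 entries in 47 gene lists 910 were measured. The members and lists were chosen with earlier results of these data known, and so were the genes named: the 3 liver markers, the 15 called genes with the greatest lead and deficit in liver, members of short lists and textbook steps of the others, up to 3 highest and 2 lowest members of each further list, up to 10 genes by adjusted p in each direction of the sex comparison and 5 of the interaction, and the genes at each threshold. Genes named for a difference between the sexes in kidney were chosen after their values were seen.

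Animal numbers in the titles tie tissues to the same mice. Deviations from the group means had a median correlation of 0.085 in the 68 array pairs of the same mouse (lowest -0.1109) and of -0.0071 in the 572 remaining pairs. A fit with the animal as a replicate block (correlation 0.057) was an alternative. The others were averaging the probe sets of a gene, array weights, a robust prior with an intensity trend, centring on array medians, quantile normalisation once more, a filter on dim genes, other thresholds, the knockout arrays, all 80 arrays together, and leaving out arrays with RNA of another tissue or each array in turn. Centring on the gene table's median, and leaving out the livers with pancreatic signal or the livers or lungs with skeletal muscle signal, were added after seeing the data.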

Additional observations from a re-analysis of the deposited data

Results flagged for a closer look

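Chance alone sets 1 array apart in about 1 of 20 groups of this size, and 6 list means stood apart from the other 7 arrays of their tissue. The number of groups examined is not given, so the 6 were not weighed against that rate. Of these 6, 4 belong to 1 list in 1 animal and are not separate events. The mean of the plasma protein genes in the heart of male 903 was 8.16, against at most 5.28 in the other hearts. The mean of the skeletal muscle genes in the brain of female 1264 was 7.50, against at most 4.69 in the other brains. The 6 measured genes of red blood cells were low in female 876 in 4 tissues, at 6.99 in liver, 7.39 in heart, 6.69 in lung and 7.43 in kidney, where the median arrays read 7.87, 8.94, 8.11 and 8.53. The brain of the same animal, at 6.31, was also the lowest of its tissue.

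The difference between male and female liver departed from that in the other 4 tissues most clearly, by adjusted p, in 10 genes. Toward males the contrasts were 8.14 for Hsd3b5, 5.71 for Elovl3, 5.02 for Serpina4-ps1, 3.80 for Susd4 and 3.74 for Nat8. Toward females they were -7.46 for Sult2a2, -6.73 for Sult3a1, -6.67 for Cyp2b9, -6.19 for Cyp2b13 and -3.67 for Tafa2.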

How the results depend on the processing

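Centring the arrays on the median of the gene table gave 1161 genes higher and 318 lower than in each tissue, 939 and 258 in both sexes, higher against brain, kidney and lung for 4665, 2379 and 4686, and lower against kidney and lung for 1428 and 2117. With no size minimum the counts were 2220 higher and 1856 lower, 1197 and 1200 in both sexes, 7717, 5353, 5603 and 7082 higher against brain, heart, kidney and lung, 5850, 5670, 5364 and 6268 lower, 517 male-high and 908 female-high. With a minimum of 2 log2 units they were 379 and 157, 331 and 126, 1548, 1068, 609 and 994 higher, 2052, 1210, 958 and 1639 lower, 22 and 37. At an adjusted p of 0.01 the interaction counts were 177 toward males and 239 toward females, and the latter was 296 without the livers of females 1264 and 1265. Leaving out 1 array at a time gave 704 to 720 higher and 567 to 603 lower, 567 to 582 and 452 to 488 in both sexes, 2858 to 2888, 1988 to 2034, 1253 to 1309 and 2044 to 2078 higher against brain, heart, kidney and lung, 3460 to 3504, 2633 to 2685, 2151 to 2220 and 3315 to 3366 lower, 87 to 121 male-high, 196 to 347 female-high, and 255 to 443 and 340 to 631 in the interaction. Other settings kept these counts within 1.5 times. With the animal as a replicate block the counts were 716 and 584, and 571 and 479 in both sexes, and among the genes named the block ended the call of Hacl1 between the sexes and changed no other call. In the knockout arrays 6 values lost the direction of the WT arrays: the male minus female difference in liver of Cd5l (0.00) and Marco (0.87), and the interaction of Marco (0.76), Igf1r (0.12), Pkm (0.11) and Pygb (0.15), and the cause was not tested. Levels near 3 to 4 lie at the lower end of the scale, so folds against them are understated.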

Other observations

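Of 15 listed genes of the respiratory chain and its carriers with forms of muscle and of other tissues, 1, Slc25a4, was lower in liver than in each other tissue and none was higher (median minus the highest other tissue -0.83). Among subunits of cytochrome c oxidase, the muscle forms Cox6a2, Cox7a1 and Cox8b read 4.44 to 6.61, 4.10 to 5.90 and 3.83 to 5.34 in the 8 livers and lay -7.56 ± 0.24, -7.67 ± 0.30 and -8.15 ± 0.33 (SE) from the heart. Their highest livers stood above medians of 5.08, 4.72 and 4.58, and skeletal muscle genes were raised in 2 livers. The partner forms Cox6a1 and Cox7a2 read 12.57 to 12.81 and 11.95 to 12.22 in liver, within 1 log2 unit of the highest tissue, at -0.49 and -0.63.

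Lymphocyte genes were near the lower end of the scale in liver. None of 12 was called in either direction by limma, and their median of -1.51 was set mostly by the lung, the highest other tissue for 11 of them. The granule protease Gzma read 3.69 to 4.30 in liver, -3.44 from the lung, and the B cell surface protein Ms4a1 3.91 to 5.86, -3.14 from it.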
